A study of Mus musculus with 12 samples.

Results

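The genes that encode the mitochondrial respiratory chain and the ATP synthase were followed in embryonic mouse lungs at E14.5, during airway branching. They were taken by name: every gene with a probe set of its own whose symbol starts with Nduf, Uqcr, Atp5 or Cox followed by a digit from 4 to 8, and Sdha, Sdhb, Sdhc and Sdhd. This gave 89 genes of the 22180 measured, each read by the probe set with the highest mean. Of the 89, 79 encode subunits: 32 of complex I, 4 of complex II, 7 of complex III, 19 of complex IV and 17 of complex V. Ndufa4 and its paralogue Ndufa4l2 carry complex I names and are counted with complex IV, where Ndufa4 is known to sit. The symbols Uqcr10, Ndufs6, Cox6c, Ndufb4 and Ndufb2, 5 subunit genes, were read only by probe sets shared with other symbols and are not among the 89. The other 10 are 8 assembly factors of complex I (Ndufaf genes) and 2 pseudogenes, Atp5c1-ps and Uqcrh-ps1.

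Total RNA of 12 lung specimens was hybridised to single-channel arrays, 4 for each of 3 genotypes. Controls were Shh+/Cre, and the mutants were Yy1flox/flox;Shh+/Cre and Dicerflox/flox;Shh+/Cre, so the Cre allele and the single intact Shh copy it leaves were shared by all groups. Shh is expressed in the lung epithelium, while the RNA came from the whole organ with its mesenchyme, vessels and blood. Yy1 is a zinc finger transcription factor, and Dicer cuts precursor hairpins into mature microRNAs. The labels do not say whether a specimen was 1 embryo or several, so p-values measure the spread between specimens only. In RNA from a whole organ, fewer cells of a type and less RNA per cell cannot be told apart.

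Electrons from NADH enter the chain at complex I and those from succinate at complex II. Ubiquinone carries them to complex III, and cytochrome c passes them on to complex IV, which reduces oxygen. Complexes I, III and IV pump protons, and complex V lets them flow back to make ATP. Most subunits are encoded in the nucleus, and several of complex IV exist as isoforms with different tissue distributions. In other tissues Yy1 is known to act on promoters of nuclear genes for mitochondrial proteins, together with the coactivator encoded by Ppargc1a. The mitochondrially encoded subunits were not analysed here.

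The targeted genes were read first. Dicer1 was 8.81 ± 0.16 (SD, n = 4) in controls and 8.20 ± 0.11 in Dicer mutants and fell by 0.61 (SE 0.0953, adjusted p = 0.0013) on the log2 scale used for every level and difference here. Yy1 was 9.03 ± 0.071 in controls and 8.84 ± 0.10 in Yy1 mutants, a difference of -0.19 (SE 0.0680, adjusted p = 0.125) that did not pass the test, although the 2 groups did not overlap. Whether either probe set lies within the floxed part is not given in the sources used here. The lung epithelial markers Nkx2-1 and Sftpc read 9.29 ± 0.12 and 11.34 ± 0.41 in controls. Of 10 such markers, 7 fell in Yy1 mutants and 6 in Dicer mutants, while Sftpb rose in both. The summed linear level of those 10 was 7018 to 9534 in controls, 4079 to 5873 in Yy1 mutants and 7491 to 9202 in Dicer mutants. Of 11 macrophage markers measured, 9 rose in each mutant, and their sum was 1807 to 1980 in controls, 2483 to 2919 in Yy1 mutants and 2781 to 3344 in Dicer mutants. The part of these shifts in the values below was not tested. On 3 arrays the Y-linked gene Eif2s3y stood above the rest, at 7.99 in Yy1 mutant 2, 5.92 in Yy1 mutant 3 and 7.84 in Dicer mutant 4, against 3.73 to 4.48 in controls.

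Because the floxed gene of one mutant encodes a transcription factor, short stretches around the starts of the respiratory genes are shown before their values. RefSeq promoter windows (GRCm38.p6, 250 bases before to 50 bases after the start) matched 72 of the 89 genes, with 77 windows. The 8 letters GCCATNTT, the core of the Yy1 motif, were searched on both strands, so that AANATGGC on the gene's strand also counts. Of the 77 windows, 18 held them (23.4%), against 6.05% of all 32851 windows in the table. There were 19 matches in all, of which 10 lay after the start and 14 read as AANATGGC. AANATGGC contains ATG, as does GCCATGTT, the form found in Atp5b. A match after the start can therefore also cover a translation start, which was not examined. The 4 stretches below belong to the genes with the letters among the 6 members lower in Yy1 mutants at an unadjusted p under 0.05, and they were chosen after those values were seen. Each is 30 bases, 5′ to 3′ on the gene's strand, with the 8 motif letters in capitals.
Atp5b, chr10:128083313-128083342, plus strand: acccggattccGCCATGTTgagtcttgtgg
Ndufs7, chr10:80249462-80249491, plus strand: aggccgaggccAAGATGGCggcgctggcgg
Ndufc1, chr3:51408915-51408944, minus strand: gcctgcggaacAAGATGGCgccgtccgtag
Ndufaf3, chr9:108567495-108567524, minus strand: ccagacttggaGCCATTTTaaggagaaacc

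Motifs of other factors known for respiratory gene promoters were counted in the same windows. The core of the NRF1 motif, GCGCA and GCGC with any base between them, was in 18 of the 77 windows (23.4%), against 4.60% of all. CCGGAAGT, an ETS motif that the Gabpa protein can bind, was in 5 (6.49% against 3.89%), and TCAAGGTCA, the motif of the estrogen-related receptors, was in 2 (2.60% against 0.423%). Each was searched on both strands, and a match read at the same place on both strands was counted once. Among the windows of measured genes alone, the shares were 6.44% for the Yy1 letters, 6.46% for NRF1, 5.11% for ETS and 0.315% for the estrogen-related receptors. The 250 bases before the start of Cox6a1 and Cox6b2 are printed because Cox6b2 is the member that rose in both mutants and Cox6a1 shows a pair of NRF1 matches, given in capitals and beginning 162 and 117 bases before the start. None of the 4 motifs was found in the window of Cox6b2, which says only that these letters are not in it. Both genes lie on the minus strand and are read 5′ to 3′.
Cox6a1, chr5:115348959-115349208: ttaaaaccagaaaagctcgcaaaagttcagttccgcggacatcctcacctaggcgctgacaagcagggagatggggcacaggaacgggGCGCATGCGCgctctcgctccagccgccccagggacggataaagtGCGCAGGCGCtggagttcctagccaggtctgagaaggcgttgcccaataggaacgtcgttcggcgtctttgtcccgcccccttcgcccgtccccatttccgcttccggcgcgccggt
Cox6b2, chr7:4753095-4753344: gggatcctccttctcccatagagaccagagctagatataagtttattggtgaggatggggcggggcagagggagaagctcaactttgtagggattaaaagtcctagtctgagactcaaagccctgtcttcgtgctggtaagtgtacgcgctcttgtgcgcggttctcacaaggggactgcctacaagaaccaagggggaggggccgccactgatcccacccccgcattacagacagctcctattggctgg

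The respiratory genes as a group lay close to their control levels in both mutants. In Yy1 mutants 1 of the 89 rose and 0 fell at a limma adjusted p under 0.05, where 6.61% of all genes were called (2.77% higher and 3.84% lower). Their differences ran from -0.26 to 0.39, with 45 positive, 44 negative and a median of 0.016, against 0.0016 over all genes. In Dicer mutants 2 rose and 0 fell, where 8.75% of all genes were called (4.78% higher and 3.97% lower). There the differences ran from -0.33 to 0.56, with 29 positive and 60 negative, and the median was -0.039 against -0.028 over all genes. The count of 0 lower depends on the processing. Under quantile normalisation, with the dimmest genes dropped or with an intensity trend in the prior, 4 to 6 members fell in Dicer mutants. Under each of these, 2 fell in Yy1 mutants. More genes were then called in either direction over all genes too. In Dicer mutants these were, in the same order, 2201 of 22180, 2374 of 15526 and 2461 of 22180, against 1940 of 22180 in the main fit. In Yy1 mutants they were 1664, 1838 and 1893, against 1465. At an unadjusted p under 0.05, 4 members were higher and 6 lower in Yy1 mutants (19.2% of all genes), and 4 higher and 8 lower in Dicer mutants (22.3% of all genes). The same numbers, 4 higher and 6 lower and then 4 higher and 8 lower, did not overlap with controls, where 12.6% and 16% of all genes did not.

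The width of the intervals says how large a change could have gone unseen. The 95% interval of the difference lay within a 1.5-fold change, 0.585 on the log2 scale, in either direction for 88 of the 89 genes in Yy1 mutants and for 84 in Dicer mutants. Over all genes this held for 91.7% and 90.8%. The median half-width of the interval was 0.18 for members and 0.20 for all genes, so smaller differences were not detectable for many members with 4 arrays a group. These intervals are not adjusted for the number of genes, so larger differences could also go uncalled. In Dicer mutants Ndufa11 at -0.33 and Cox5a at -0.31 had limma adjusted p of 0.0882 and 0.0528. Of the members, 5 (Cox7b2, Cox8b, Cox8c and the 2 pseudogenes) belong to the dimmest 30% of genes.

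**Figure D1:**
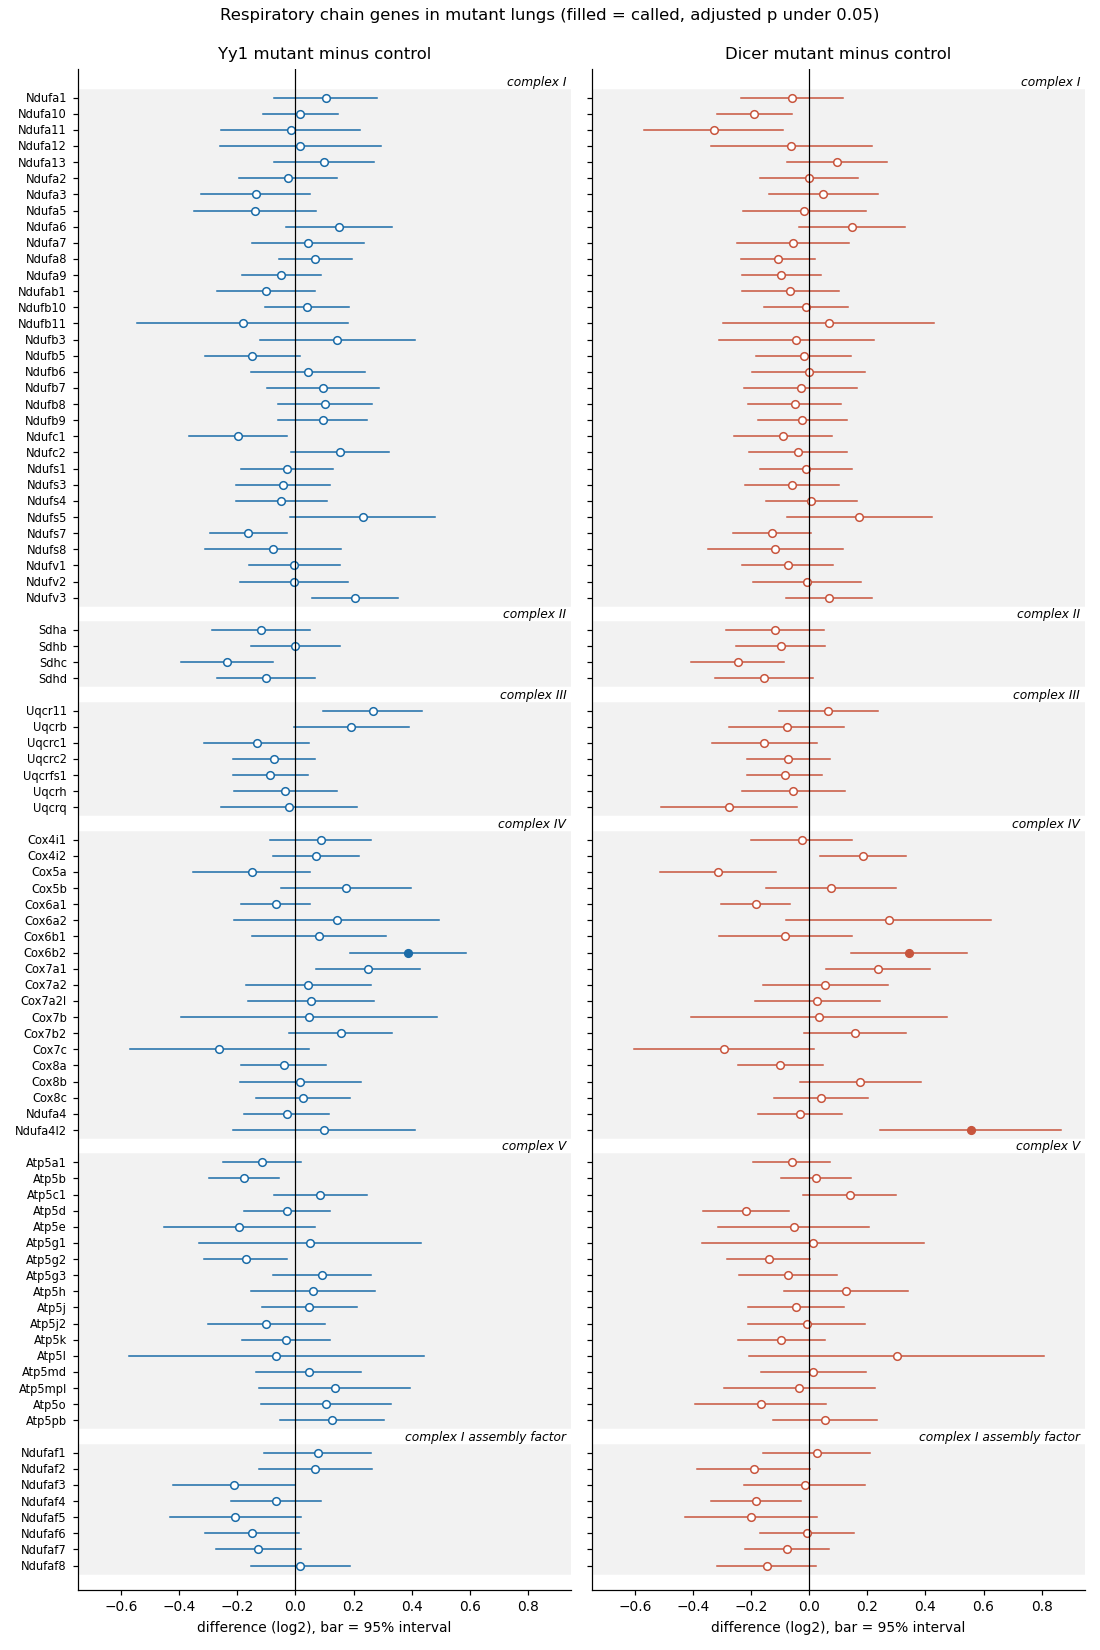
Difference from control (log2) of each subunit and complex I assembly factor, with its 95% interval from the linear model, by complex, for Yy1 mutants (left) and Dicer mutants (right); filled points were called at an adjusted p under 0.05. Cox6b2 is filled in both panels and Ndufa4l2 in the Dicer panel, while most intervals cross 0 and lie within 0.585 of it.

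**Figure D2:**
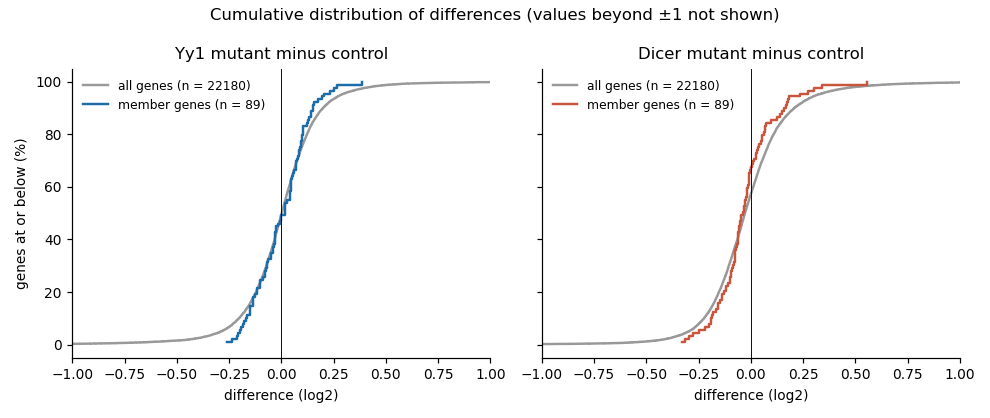
Cumulative percentage of genes (vertical axis) at or below each difference from control (log2, horizontal axis) for the 89 members and for all 22180 genes. The member curves run near those of all genes and have shorter tails, from -0.26 to 0.39 in Yy1 mutants and from -0.33 to 0.56 in Dicer mutants.

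Complex I, the NADH dehydrogenase, had 0 of its 32 subunits called in either mutant. Its median difference was 0.0064 in Yy1 mutants, with 16 positive and 16 negative and a range of -0.029 to 0.039 over other processing, and -0.034 in Dicer mutants, with 7 positive and 25 negative. Ndufs1 and Ndufv1, core subunits that carry iron-sulfur clusters and the flavin, differed by -0.029 and -0.0035 in Yy1 mutants and by -0.011 and -0.074 in Dicer mutants. The ends of the range in Yy1 mutants were Ndufs5 at 0.23 (adjusted p = 0.302) and Ndufc1 at -0.20 (adjusted p = 0.174).

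The complex I subunits with the smallest p in Yy1 mutants were Ndufv3, Ndufs7 and Ndufc1. Ndufv3, an accessory subunit beside the flavin site, read 7.91, 7.98, 7.98 and 7.81 in controls and 8.18, 8.07, 8.15 and 8.09 in Yy1 mutants. All 4 mutant values lay above all controls, and the difference of 0.21 (SE 0.0688) had an adjusted p of 0.104. Ndufs7, a core subunit with an iron-sulfur cluster, read 9.50, 9.38, 9.41 and 9.28 in controls and 9.26, 9.26, 9.19 and 9.21 in Yy1 mutants. The groups did not overlap, although the lowest control lay only just above the highest mutant, and the difference of -0.16 (SE 0.0621) had an adjusted p of 0.161. In Dicer mutants Ndufs7 differed by -0.13 (adjusted p = 0.244).

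In Dicer mutants the lowest complex I values were those of Ndufa11 and Ndufa10. Ndufa11, an accessory subunit of the membrane arm, read 9.06, 8.94, 9.02 and 8.78 in controls, 8.97, 8.61, 9.17 and 8.98 in Yy1 mutants, and 8.46, 8.57, 8.75 and 8.70 in Dicer mutants. Each Dicer mutant lay below each control, and Yy1 mutant 2 fell among the Dicer mutants. The difference of -0.33 (SE 0.111) had an adjusted p of 0.0882. A second, dimmer probe set of Ndufa11 gave -0.39 in Dicer mutants. Ndufa10, also an accessory subunit, read 10.05, 9.95, 9.89 and 9.91 in controls and 9.82, 9.74, 9.76 and 9.72 in Dicer mutants. The groups did not overlap, and the difference of -0.19 (SE 0.0600) had an adjusted p of 0.0692. At the other end, Ndufs5 differed by 0.17 (adjusted p = 0.423).

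The 8 complex I assembly factors, which help to build the complex and are not part of it, had 0 called in either mutant. Their median was -0.097 in Yy1 mutants with 5 negative, and -0.11 in Dicer mutants with 7 negative. Ndufaf3, whose stretch upstream of the start is printed above, read 7.54, 7.03, 7.40 and 7.21 in controls, 7.10, 6.93, 7.15 and 7.15 in Yy1 mutants, and 7.31, 7.25, 7.28 and 7.27 in Dicer mutants. The spread of the controls covered all Dicer mutants and 3 of the 4 Yy1 mutants, and the Yy1 difference of -0.21 had an adjusted p of 0.252.

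Complex II, succinate dehydrogenase, is the citrate cycle enzyme that sits in the chain, and all of its subunits are nuclear. All 4 differed in the negative direction in both mutants and 0 were called. The median was -0.11 in Yy1 mutants and -0.14 in Dicer mutants. Sdhc, a membrane anchor, read 9.47, 9.50, 9.23 and 9.37 in controls, 9.20, 9.21, 9.10 and 9.11 in Yy1 mutants, and 9.18, 9.25, 9.10 and 9.05 in Dicer mutants. Every Yy1 mutant lay below every control, while the highest Dicer mutant passed control 3. The differences were -0.24 (SE 0.0738, adjusted p = 0.0802) and -0.25 (SE 0.0738, adjusted p = 0.0549).

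The other complex II subunits differed less. The flavoprotein Sdha differed by -0.12 in both mutants, with adjusted p values of 0.466 in Yy1 and 0.418 in Dicer mutants. Sdhb, the iron-sulfur subunit, differed by -0.0010 and -0.098, and the second anchor Sdhd by -0.10 and -0.16. The shared sign of the 4 subunits is not independent between mutants, which were set against the same controls. The per-array median of the 4, as a deviation from the control mean, ran from -0.13 to 0.11 in controls, from -0.16 to -0.077 in Yy1 mutants and from -0.17 to -0.13 in Dicer mutants. One control thus lay among the mutants.

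**Figure D3:**
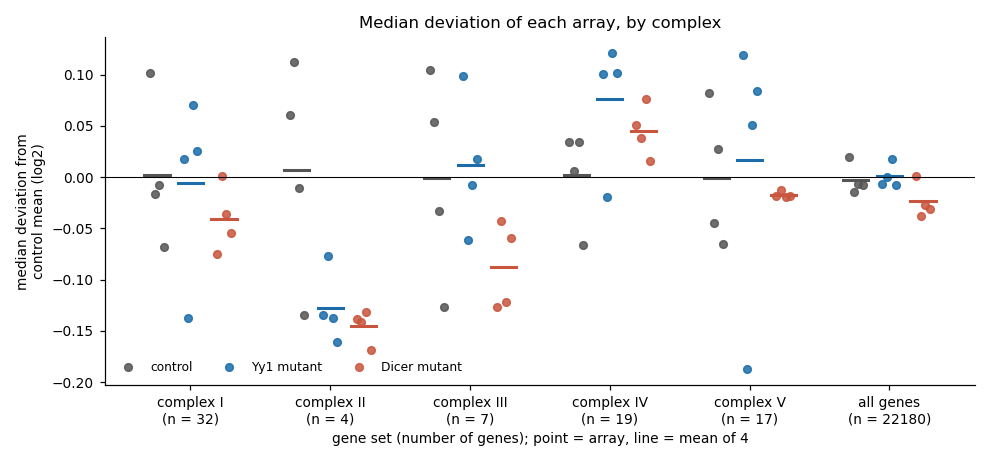
Median deviation from the control mean (log2, vertical axis) over the subunits of each complex and over all genes, for each array (points) with the mean of the 4 arrays of a genotype (lines). Complex II lies lowest, with 1 control at -0.13 among the mutants; Yy1 mutant 2 is the low point of its group for complexes I, III, IV and V.

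Complex III, the cytochrome bc1 complex, had 0 of the 7 subunits among the members called. Its median was -0.035 in Yy1 mutants and -0.077 in Dicer mutants, with 5 and 6 negative. Without the 3 arrays high in Eif2s3y the Yy1 median was 0.068. The core protein Uqcrc1 differed by -0.13 and -0.15, and Uqcrfs1, the Rieske iron-sulfur subunit, by -0.087 and -0.085. Uqcr11, one of the smallest subunits, read 7.34, 7.18, 7.23 and 7.01 in controls, 7.41, 7.51, 7.57 and 7.33 in Yy1 mutants, and 7.32, 7.20, 7.26 and 7.24 in Dicer mutants. Yy1 mutants were higher except that mutant 4 lay just under control 1, and Dicer mutants lay inside the control range. The Yy1 difference of 0.27 (SE 0.0793) had an adjusted p of 0.0660, and the Dicer difference was 0.065. Uqcrq, which lies beside the ubiquinone site, was lower in all 4 Dicer mutants (6.68 to 6.87) than in controls (6.88 to 7.25), with a difference of -0.28 and an adjusted p of 0.145.

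Complex IV, cytochrome c oxidase, held every member that was called, with Ndufa4l2 counted there beside its paralogue Ndufa4. Cox6b2, known as the testis isoform of subunit VIb, read 7.32, 7.60, 7.45 and 7.23 in controls, 7.76, 7.89, 7.84 and 7.66 in Yy1 mutants, and 7.65, 7.95, 7.68 and 7.69 in Dicer mutants. Every array of both mutants lay above every control. The means were 7.40 ± 0.16, 7.79 ± 0.098 and 7.74 ± 0.14 (SD, n = 4). Cox6b2 rose by 0.39 (1.31-fold, SE 0.0928, adjusted p = 0.0230) in Yy1 mutants and by 0.34 (1.27-fold, SE 0.0928, adjusted p = 0.0354) in Dicer mutants. Between the mutants it differed by 0.044 (95% interval -0.16 to 0.24).

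The Cox6b2 calls lay near the threshold. Leaving out single arrays could end them, while the difference in those fits stayed at 0.33 to 0.40 in Yy1 mutants and 0.27 to 0.36 in Dicer mutants. In Yy1 mutants the adjusted p was 0.0684 without control 1, 0.0631 without control 4, and 0.0509, 0.0606 and 0.0689 without Yy1 mutants 1, 2 and 3. In Dicer mutants it was 0.0926, 0.0626 and 0.0938 without controls 1, 3 and 4, and 0.108, 0.0580 and 0.0667 without Dicer mutants 2, 3 and 4. With equal array medians the adjusted p was 0.0523 and 0.0527, and without the 3 arrays with raised Eif2s3y it was 0.258 and 0.0985, with differences of 0.31 and 0.36. With only the 2 groups compared in the fit it was 0.0705 for the Dicer mutants.

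Ndufa4l2, a paralogue of Ndufa4 that is known to be induced by hypoxia, was the other called member. It read 7.18, 7.66, 7.42 and 7.00 in controls, 7.29, 7.72, 7.55 and 7.10 in Yy1 mutants, and 7.94, 7.93, 7.80 and 7.81 in Dicer mutants. The Dicer mutants lay above all other arrays, and the Yy1 mutants spread over the range of the controls. Ndufa4l2 rose by 0.56 (1.47-fold, SE 0.145, adjusted p = 0.0296) in Dicer mutants and differed by 0.099 (adjusted p = 0.790) in Yy1 mutants. The difference between the mutants, -0.46 (SE 0.145), had an adjusted p of 0.101. The Dicer call was lost without control 1 (0.0853), control 4 (0.0813) or any of Dicer mutants 1 to 4 (0.0632, 0.0771, 0.0547 and 0.0605), with the difference at 0.45 to 0.58 in these fits.

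Ndufa4l2 is also abundant in pericytes of the adult lung, so a list of smooth muscle and pericyte markers was read beside it. Of its 13 genes, 5 fell and 2 rose in each mutant. Rgs5, a pericyte marker, rose by 1.01 in Yy1 mutants and by 0.67 in Dicer mutants. Abcc9, also expressed in pericytes, rose by 0.68 in Dicer mutants, and Pdgfrb rose by 0.33 in Yy1 mutants. The 5 that fell in each mutant were the contractile genes Myh11, Acta2, Actg2, Tagln and Cnn1. The sum of the 13 was 9154 to 10142 in controls, 6661 to 8567 in Yy1 mutants and 7115 to 7849 in Dicer mutants, and its part in the Ndufa4l2 value was not tested. The Rgs5 call in Dicer mutants was lost without any of 5 arrays (adjusted p up to 0.0762), and that of Abcc9 without any of 3 (up to 0.0704).

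Of the 19 complex IV subunits, 14 were positive in Yy1 mutants and 12 in Dicer mutants, with medians of 0.055 and 0.040. Some widespread subunits differed in the other direction in Dicer mutants. Cox5a, a peripheral subunit on the matrix side, read 9.48, 9.48, 9.48 and 9.35 in controls, 9.30, 9.05, 9.31 and 9.54 in Yy1 mutants, and 9.08, 9.27, 9.14 and 9.04 in Dicer mutants. Dicer mutants lay below all controls, and Yy1 mutants spread from near the lowest of them to above the controls. The difference was -0.31 (SE 0.0932, adjusted p = 0.0528) in Dicer mutants and -0.15 (adjusted p = 0.427) in Yy1 mutants.

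Cox6a1, the widespread isoform of subunit VIa whose upstream sequence is printed above, read 12.26, 12.25, 12.19 and 12.21 in controls, 12.16, 12.23, 12.17 and 12.10 in Yy1 mutants, and 12.06, 12.05, 12.03 and 12.04 in Dicer mutants. The Dicer mutants lay below all other arrays. The difference was small and tight, -0.19 (SE 0.0549, adjusted p = 0.0530). The ends of the range in complex IV were Cox7c at -0.26 in Yy1 mutants (adjusted p = 0.357) and Cox5a in Dicer mutants. Cox4i1, the main isoform of the largest nuclear subunit, differed by 0.087 and -0.026.

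**Figure D4:**
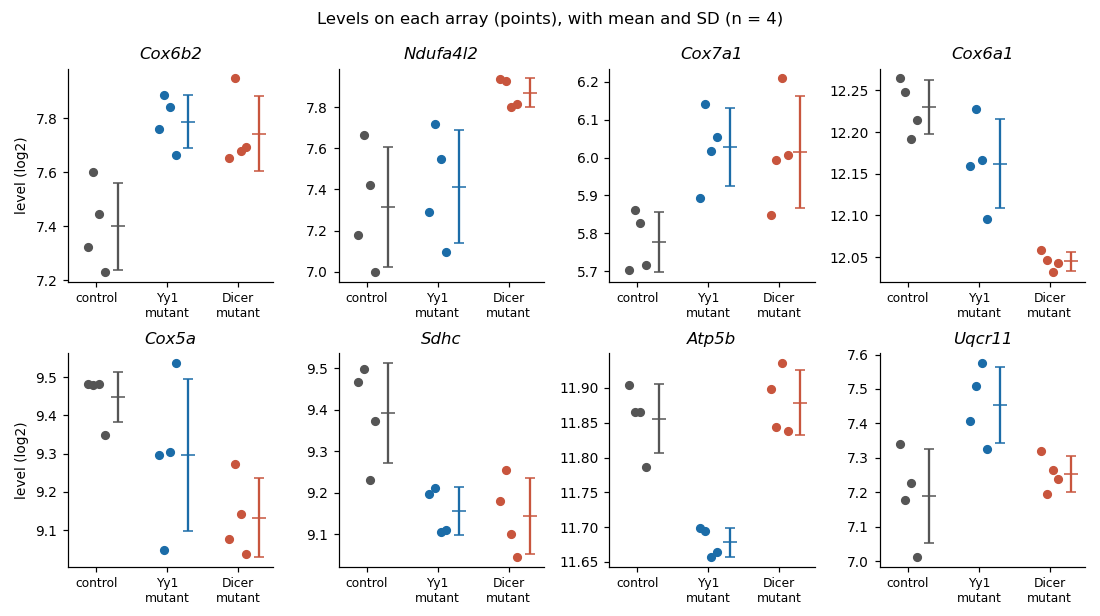
Level (log2, vertical axis, with a scale of its own for each gene) of 8 members on every array (points) by genotype, with mean and SD (n = 4). Cox6b2 lies above the controls in both mutants, Ndufa4l2 and Cox6a1 set the Dicer mutants apart from the other arrays, and Atp5b sets the Yy1 mutants apart.

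Isoform pairs allow a comparison of differences within a subunit. There are 8 such pairs among the members, each of a widespread and a restricted isoform: Cox4i1 with Cox4i2, Cox6a1 with Cox6a2, Cox6b1 with Cox6b2, Cox7a2 with Cox7a1, Cox7b with Cox7b2, Cox8a with Cox8b and with Cox8c, and Ndufa4 with Ndufa4l2. The difference of the restricted isoform was the more positive in 8 of the 8 pairs in Dicer mutants and in 7 in Yy1 mutants, where Cox4i2 (0.072) lay below Cox4i1 (0.087). Cox6b1 differed by 0.081 and -0.082 beside the calls of Cox6b2. Ndufa4 differed by -0.031 in both mutants beside Ndufa4l2. The pair of Cox7b and Cox7b2 was added after the values were seen. Apart from Cox6b2 and Ndufa4l2, no restricted isoform passed the test in either mutant, and no test was made across the pairs, which share arrays and, for Cox8a, a partner.

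Of the restricted isoforms, Cox7a1, the heart and skeletal muscle form, read 5.70, 5.86, 5.83 and 5.72 in controls, 5.89, 6.14, 6.02 and 6.05 in Yy1 mutants, and 5.85, 5.99, 6.21 and 6.01 in Dicer mutants. All Yy1 mutants lay above the controls, and Dicer mutant 1 lay just inside their range. The differences were 0.25 (adjusted p = 0.101) and 0.24 (adjusted p = 0.1004). Cox4i2, the oxygen-sensitive form known from lung, read 7.41, 7.60, 7.54 and 7.58 in controls and 7.74, 7.70, 7.77 and 7.66 in Dicer mutants. The groups did not overlap, with a difference of 0.19 (SE 0.0685, adjusted p = 0.122). The testis forms Cox7b2 and Cox8c and the muscle form Cox8b, all dim, differed by 0.16, 0.027 and 0.017 in Yy1 mutants and by 0.16, 0.040 and 0.18 in Dicer mutants.

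Cox6a2, the other muscle form, varied most among the Dicer mutants. It read 5.90, 5.90, 6.87 and 6.30 there, 5.97, 5.89, 6.06 and 5.96 in controls, and 6.07, 6.17, 6.14 and 6.07 in Yy1 mutants. Dicer mutants 3 and 4 were the highest arrays. The same arrays had the highest summed level of 20 heart and striated muscle markers, 3770 and 2856, against 2130 to 2293 in controls, 1651 to 2772 in Yy1 mutants and 1651 and 2155 in the other Dicer mutants. Of these 20 markers, 1 rose in Yy1 mutants (Myh8) and 0 passed the test in Dicer mutants. Their part in the muscle isoforms was not tested. Cox6a2 differed by 0.14 (adjusted p = 0.722) in Yy1 and 0.27 (adjusted p = 0.363) in Dicer mutants.

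Complex V, the ATP synthase, had 0 of 17 subunits called, with medians of 0.046 in Yy1 mutants and -0.034 in Dicer mutants. Atp5b, the catalytic beta subunit, read 11.90, 11.87, 11.87 and 11.79 in controls, 11.70, 11.69, 11.66 and 11.66 in Yy1 mutants, and 11.90, 11.84, 11.94 and 11.84 in Dicer mutants. The Yy1 mutants lay below all other arrays. The difference from controls was -0.18 (SE 0.0559, adjusted p = 0.0827), and that from Dicer mutants, -0.20 (SE 0.0559, adjusted p = 0.0585), was the member difference with the smallest adjusted p between the mutants. Atp5a1, the alpha subunit that alternates with it in the ring, differed by -0.12 (adjusted p = 0.342) in Yy1 and -0.061 (adjusted p = 0.629) in Dicer mutants.

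Atp5g2, 1 of the 3 genes for the membrane ring subunit, read 11.60, 11.48, 11.51 and 11.51 in controls, 11.39, 11.21, 11.42 and 11.39 in Yy1 mutants, and 11.46, 11.42, 11.37 and 11.30 in Dicer mutants. Both mutants lay below the controls without overlap. The differences were -0.17 (adjusted p = 0.168) and -0.14 (adjusted p = 0.239). Atp5d, the delta subunit of the central stalk, read 8.70, 8.86, 8.61 and 8.59 in controls and 8.53, 8.49, 8.45 and 8.42 in Dicer mutants. These groups did not overlap either, and the difference of -0.22 (SE 0.0685) had an adjusted p of 0.0676. Its second probe set gave -0.30. The ends of the range in Yy1 mutants were Atp5mpl at 0.13 and Atp5e at -0.19. The highest Dicer value, 0.30 for Atp5l, had an interval from -0.21 to 0.81.

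Set directly against each other, the mutants had 0 of 89 members called, where 4.96% of all genes were called (1.57% higher in Yy1 mutants and 3.39% lower). At an unadjusted p under 0.05, 10 members were higher and 2 lower in Yy1 than in Dicer mutants (17.9% of all genes). The 2 lower were Atp5b and Ndufa4l2. The largest positive differences among the 10 of smallest p were Ndufa11 at 0.31 (adjusted p = 0.143), Atp5o at 0.27 (0.177), Uqcrb at 0.27 (0.126) and Ndufaf2 at 0.26 (0.136). Ndufa10, at 0.21, had an adjusted p of 0.0705. The complex medians were 0.046, 0.033, 0.021, 0.013 and 0.033 for complexes I to V, against 0.029 over all genes. Without Yy1 mutant 2, which was the lowest Yy1 array for the medians of complexes I, III, IV and V, 4 members were called higher and 1 lower. Among these were Ndufa11 (0.42, adjusted p = 0.0238) and Ndufaf2 (0.35, adjusted p = 0.0186), with Ndufa4l2 (-0.56, adjusted p = 0.0486) as the lower one. Over all genes, 1026 of 22180 were called in either direction in that fit, against 1101 with every array.

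The Yy1 mutant values were then split by the motif letters printed above. The 18 members with GCCATNTT or AANATGGC in the window had a median difference of -0.063 in Yy1 mutants, with 7 positive, 11 negative and 0 called, and the median ran from -0.098 to -0.020 over the other settings that kept every array or dropped those high in Eif2s3y. The 54 without had a median of 0.016, with 29 positive and 25 negative. In Dicer mutants the same medians were -0.018 and -0.058. Of the 6 members lower at an unadjusted p under 0.05 in Yy1 mutants, 5 had a window and 4 of these held the letters: Atp5b, Ndufs7, Ndufc1 and Ndufaf3. Of the 4 higher members, Cox6b2, Cox7a1, Ndufv3 and Uqcr11, 0 held them. Over all measured genes, 1275 with the letters had a median of -0.035 in Yy1 mutants, and 4.47% fell and 1.1% rose. The 15715 without had a median of 0.0007, with 3.73% and 2.6%. In Dicer mutants these medians were -0.026 and -0.031. There 3.14% of the genes with the letters fell and 3.14% rose, against 4.05% and 4.73% of those without. A smaller share of risers among genes with the letters was thus seen in both mutants. Of the 18 members with the letters, 0 were higher and 0 lower in Dicer mutants at an unadjusted p under 0.05. No test was made of the split, and a match in a window does not show that Yy1 binds there.

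**Figure D5:**
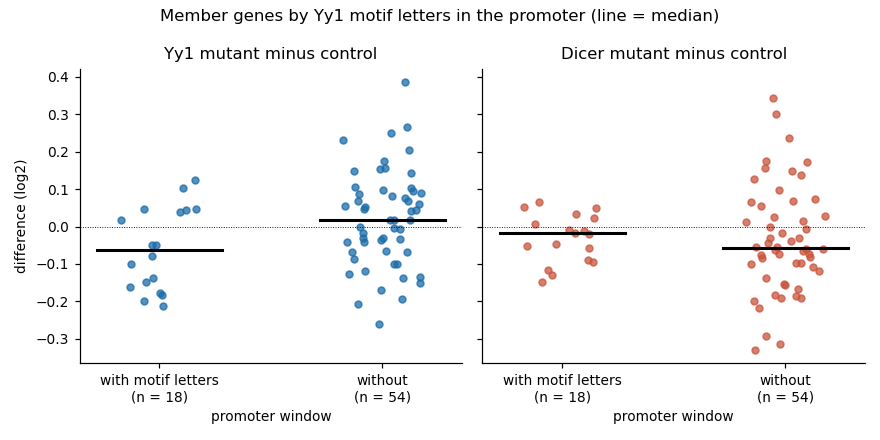
Difference from control (log2, vertical axis) of the 72 members with a promoter window, split by whether the window holds the Yy1 motif letters (18 with, 54 without), for Yy1 mutants (left) and Dicer mutants (right); points are genes, spread sideways for legibility, and lines are medians. The medians are -0.063 with and 0.016 without the letters in Yy1 mutants, and -0.018 and -0.058 in Dicer mutants, with wide overlap.

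Genes around the chain were read from lists written with the member list. The lists also hold Cyc1, a complex III subunit whose symbol falls outside the naming rule. Cytochrome c1 (Cyc1) and cytochrome c (Cycs), the electron carriers of complex III and beyond, differed by -0.12 and -0.0001 in Yy1 mutants and by -0.18 and -0.11 in Dicer mutants, none called. Of 39 assembly factors of all complexes, 0 were called in either mutant. A list of 20 genes held regulators of respiratory genes and mitochondrial DNA and also counted Dicer1, the gene targeted in Dicer mutants. Of the 20, 0 were called in Yy1 mutants and only Dicer1 itself in Dicer mutants. Ppargc1a, which encodes the coactivator PGC-1alpha, differed by -0.26 (adjusted p = 0.180) in Yy1 mutants and by -0.074 in Dicer mutants. Its relative Ppargc1b differed by -0.096 and 0.15. The transcription factor genes Nrf1, Gabpa and Esrra differed by -0.094, -0.0082 and 0.014 in Yy1 mutants and by -0.11, 0.041 and -0.042 in Dicer mutants. Tfam, which packages and transcribes mitochondrial DNA, differed by 0.0090 and -0.13.

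The pathways that feed the chain held a few calls. Over all genes, 6.61% were called in Yy1 mutants, 8.75% in Dicer mutants and 4.96% between the mutants. Of 17 genes of the citrate cycle and pyruvate dehydrogenase, Pdha1, a catalytic subunit of that dehydrogenase, fell by 0.22 in Yy1 mutants (adjusted p = 0.0311). In Dicer mutants 2 fell, citrate synthase (Cs) by 0.38 (adjusted p = 0.0240) and malate dehydrogenase (Mdh2) by 0.25 (adjusted p = 0.0302). The medians of the list were -0.13 and -0.090, against 0.0016 and -0.028 over all genes. Of 16 genes of glycolysis and lactate handling, the lactate exporter Slc16a3 rose by 0.43 in Yy1 mutants (adjusted p = 0.0140). In Dicer mutants 4 fell by 0.24 to 0.28: hexokinase (Hk2), phosphofructokinase (Pfkl), triosephosphate isomerase (Tpi1) and phosphoglycerate kinase (Pgk1). Pgk1 and Pdk1 were higher in Yy1 than in Dicer mutants, by 0.27 and 0.32, and Ldhb was lower by 0.40 (adjusted p = 0.0392, 0.0311 and 0.0448).

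Of 20 genes for carriers, porins and coenzyme Q synthesis, Coq4, needed to make ubiquinone, fell by 0.23 in Yy1 mutants (adjusted p = 0.0483) and by 0.22 in Dicer mutants (adjusted p = 0.0453). The import channel gene Tomm40 fell by 0.40 in Dicer mutants (adjusted p = 0.0191). The list thus held 1 call in Yy1 mutants, where 6.61% of all genes were called. It held 2 in Dicer mutants, where 8.75% were. Most of the pathway and carrier calls were lost with 1 array less. The call of Coq4 was lost in 11 and 9 of the 12 fits that each left out 1 array, with adjusted p up to 0.116 and 0.138. That of Pdha1 was lost in 7 (up to 0.0843), that of Mdh2 in 6 (up to 0.0793), that of Cs in 4 (up to 0.0617), and those of Tomm40 and Hk2 in 3 each (up to 0.0579 and 0.0709). Those of Tpi1, Pgk1 and Pfkl were lost in 10, 9 and 8 (up to 0.139). Between the mutants, the calls of Pgk1, Ldhb and Pdk1 were lost in 8, 8 and 5, and with the mean of all probe sets Pdk1 differed by 0.0996 (adjusted p = 0.485). Equal array medians also ended the Dicer calls of Coq4, Mdh2, Pgk1, Tpi1 and Pfkl (adjusted p 0.0657 to 0.0751), and those of Pdk1 and Pgk1 between the mutants (0.0525 and 0.109). Slc16a3 and, among the targeted genes, Dicer1 passed in all 12. Without the 3 arrays high in Eif2s3y, Slc16a3 missed the threshold (0.0978), as did every other pathway and carrier call named here. Against controls their adjusted p then ran from 0.0581 (Tomm40) to 0.203 (Coq4 in Yy1 mutants). Between the mutants it was 0.255, 0.154 and 0.0512 for Pgk1, Ldhb and Pdk1. Over all genes, 606 were then called in Yy1 mutants, 976 in Dicer mutants and 435 between the mutants, against 1465, 1940 and 1101.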

How the data were processed

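The authors' deposited table held log2 values of 41345 probe sets on 12 arrays. Log base 2 is inferred from the values (1.1 to 13.58, array medians 5.99 to 6.08). How the arrays were summarised and normalised, and their design, is not given in the sources used here. Of the probe sets, 23521 had exactly 1 symbol and gave 22180 genes, each read by its brightest probe set. Another 10 probe sets that pair a symbol of these families with a second symbol were left out, 3 with a member's symbol and 7 of 5 other genes; 0 were called in any comparison. No further normalisation or filter was applied. The 3 genotypes were fitted in one model with limma 3.58.1 in R 4.3.3 (9 residual degrees of freedom, two-sided, Benjamini-Hochberg over all genes, called at an adjusted p under 0.05). The fit was tested on simulated data. A complex is described by counts and medians, with no set test. The deviations behind the per-array medians are from each gene's control mean. Marker sums are of linear values.

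Members and lists were chosen with earlier results of these data known. Named members are the called ones, the 10 of smallest p per comparison, the ends of each complex's range, all Sdh genes, core subunits and tissue isoforms; other named members and single probe sets were picked after their values were seen. Alternatives tried were a replicate block, leaving out each array, fitting only the groups compared, quantile normalisation, equal medians, dropping the dimmest 30% of genes, averaging a gene's probe sets, a prior with intensity trend and, chosen after the values were seen, leaving out the 3 arrays high in Eif2s3y. The medians of complexes I and IV were also taken with Ndufa4 and Ndufa4l2 counted with complex I. Precision is limited by 4 arrays a group. Python 3.11.15, pandas 2.3.3, numpy 2.4.6 and matplotlib 3.10.9 were used for tables and plots.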

Additional observations from a re-analysis of the deposited data

Results flagged for a closer look

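Among the named members, 14 of 132 groups of 4 arrays held 1 array far from the other 3, by Dixon's test at its 95% critical value, where chance gives about 1 group in 20. Of the 14, 6 are the low value of Yy1 mutant 2: Cox7a2 at 8.56 (others from 8.90 to 8.94), Ndufa4 at 10.16 (10.32 to 10.33), Atp5l at 8.59 (9.55 to 9.73), Cox7c at 6.42 (6.71 to 6.77), Atp5g2 at 11.21 (11.39 to 11.42) and Atp5mpl at 8.75 (9.17 to 9.24). This array also has the highest Eif2s3y level, and the part of that in these values was not tested.

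Atp5l stood apart in all groups: control 2 read 8.78 (others 9.61 to 9.68) and Dicer mutant 1 read 9.52 (9.78 to 9.82). In controls, Cox5a read 9.35 in control 4 (others 9.48), Ndufaf2 read 6.59 in control 4 (6.76 to 6.77) and Atp5o read 7.27 in control 1 (others 7.12). In Dicer mutants, Cox6b2 read 7.95 in mutant 2 (others 7.65 to 7.69), Ndufa4 read 10.24 in mutant 2 (others 10.30) and Sdha read 10.19 in mutant 4 (10.08 to 10.10). The remaining values of Cox6b2 in Dicer mutants still lay above all controls.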

How the results depend on the processing

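Counts of called members are small and moved with the settings, as did the counts called over all genes. Members higher in Yy1 mutants (1) became 0 with equal array medians and without the 3 arrays high in Eif2s3y (Y-raised), and 2 with the intensity trend or the dimmest genes dropped; leaving out single arrays gave 0 to 1. Members lower in Yy1 mutants (0) became 2 under quantile normalisation, with the trend and with the dimmest genes dropped, and 0 to 1 with an array left out. Members higher in Dicer mutants (2) became 1 with equal medians, with only the groups compared and without the Y-raised arrays, and 0 to 2 with an array left out. Members lower in Dicer mutants (0) became 4 under quantile normalisation, 5 without the dimmest genes, 6 with the trend, 1 with the mean of all probe sets and 1 with only the groups compared, and 0 to 3 with an array left out (3 without Yy1 mutant 2, 1 without control 3 or Yy1 mutant 4). The 6 were Ndufa10, Ndufa11, Sdhc, Cox5a, Cox6a1 and Atp5d, with adjusted p from 0.0035 to 0.0424. Between the mutants, members higher (0) became 1, 3 and 1 and members lower (0) became 1, 1 and 1 under quantile normalisation, with the trend and with the dimmest genes dropped; single arrays gave 0 to 4 and 0 to 1. The labels do not say whether the replicate numbers pair the samples. Of 12 same-numbered pairs across genotypes, 3 had deviations that correlated over 0.1 (range -0.16 to 0.19). Pairs with different numbers ran from -0.26 to 0.21, so these correlations do not settle whether the samples were paired. With the replicate block, 1 member was lower in Dicer mutants (Sdhc) and 1 lower in Yy1 than in Dicer mutants (Ndufa4l2), and the replicate block changed no other count of members. It ended the calls of Coq4 in both mutants (adjusted p = 0.0850 and 0.0759), Pdha1 (0.0539), Mdh2 (0.0603) and Tpi1 (0.0518).

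Without the Y-raised arrays the complex III median was 0.068 in Yy1 mutants and 0.11 between the mutants, and the complex II median between the mutants was 0.0043; with equal medians the last was -0.0018. With single arrays left out, these medians between the mutants ran from -0.0048 to 0.046 (complex II) and from 0.021 to 0.092 (complex III).

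Differences near 0 changed sign. In Yy1 mutants quantile normalisation gave Ndufv1 0.0061, Sdhb 0.0073, Cox8b -0.023, Cox8c -0.012, Cycs 0.0018, Gabpa 0.0011 and Tfam -0.00067. Equal medians gave Cox8b -0.018, Cox8c -0.0084, Esrra -0.021 and Tfam -0.026, and the mean of all probe sets gave Cycs 0.080. Without the Y-raised arrays Ndufs1 was 0.013, Sdhb 0.024, Cox8c -0.019, Ndufa4 0.0091, Ndufa4l2 -0.12, Cycs 0.098, Esrra -0.034 and Gabpa 0.030, and in Dicer mutants Cox4i1 was 0.013. With single arrays left out, Yy1 mutant differences ran from -0.078 to 0.011 (Ndufs1), -0.030 to 0.052 (Ndufv1), -0.040 to 0.038 (Sdhb), -0.0062 to 0.13 (Cox7a2), -0.071 to 0.013 (Cox8a), -0.067 to 0.073 (Cox8b), -0.023 to 0.078 (Cox8c), -0.066 to 0.011 (Ndufa4), -0.0065 to 0.22 (Ndufa4l2), -0.062 to 0.092 (Cycs), -0.031 to 0.064 (Esrra), -0.083 to 0.085 (Gabpa) and -0.015 to 0.040 (Tfam). Dicer mutant differences ran from -0.060 to 0.031 (Ndufs1), -0.075 to 0.033 (Cox4i1), -0.0099 to 0.091 (Cox8c), -0.067 to 0.0098 (Ndufa4), -0.054 to 0.0051 (Yy1) and -0.034 to 0.13 (Gabpa). Some settings fitted fewer genes or arrays, and the cause of these moves was not tested.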

Other observations

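A set of 10 probe sets pairs a respiratory gene symbol with a second symbol and entered no comparison above. Fitted on all 41345 probe sets, 0 of them passed the limma test in any comparison, with 4, 3 and 0 at an unadjusted p under 0.05 in Yy1 mutants, in Dicer mutants and between the mutants. Their differences ran from -0.34 to 0.30 in Yy1 mutants and from -0.24 to 0.19 in Dicer mutants, with lowest adjusted p of 0.102 and 0.165. The low end in both mutants was a probe set of Ndufs6 and Ndufs6b. Another probe set of these symbols differed by -0.20 in Yy1 and -0.21 in Dicer mutants. The high end in Yy1 mutants was a probe set of Ndufs1 and Ino80dos, where the Ndufs1 probe set used above differed by -0.029. The 2 pseudogenes, both dim, differed by -0.078 (Atp5c1-ps) and 0.13 (Uqcrh-ps1) in Yy1 mutants and by 0.17 and -0.14 in Dicer mutants, none called.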
